A study of Homo sapiens
Rattus norvegicus and Homo sapiens with 10 samples.

Results

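The genes described here encode the subunits of the proteasome, its activators, its inhibitor and its assembly factors. They were taken by name, as every gene whose symbol is PSMA, PSMB, PSMC, PSMD, PSME, PSMF or PSMG followed by a number, which gave 48 of the 62754 genes in the table and left out pseudogenes, antisense genes and partners with other names. RNA was sequenced from U251N, an established human glioblastoma cell line, implanted into the brains of adult female athymic RNU/RNU rats. The primary tumours (n = 3) were never ablated. The recurrent tumours (n = 3) came from animals treated with laser interstitial thermal therapy (LITT), in which heat from a laser fibre ablates the tumour under magnetic resonance guidance. The tumour-free control brains (n = 3) carry 1 shared label for procedural and failed-graft controls, with the failed graft being control replicate 1 per the series' design text. A single culture of the line served as an outside reference. All human cells in the series thus derive from 1 line, and the rats lack thymus-derived T cells. The counts are of human genes, so a host T cell response was not measured in either tumour group. Whether each library came from its own animal is not stated, and the p-values measure the spread between these libraries.

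The proteasome is the protease that degrades proteins tagged with ubiquitin. Its 20S core is a barrel of alpha rings, which gate the entrance, around beta rings, which hold the proteolytic sites. The 19S cap recognises and unfolds the substrate with its ATPase and non-ATPase subunits. PSMB5, PSMB6 and PSMB7 are the constitutive catalytic subunits, with chymotrypsin-like, caspase-like and trypsin-like activity respectively. Under interferon-gamma, cells exchange them for PSMB8, PSMB9 and PSMB10 in newly built particles, called immunoproteasomes, which favour peptides that fit MHC class I molecules. Tumour cells with a high load of misfolded protein depend on proteasome capacity, and proteasome inhibitors bind first of all to PSMB5.

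The constitutive and inducible catalytic subunits are separate genes with related coding sequences, and the values below rest on telling their reads apart. The stretches shown are the coding strand of GENCODE 29 principal transcripts on GRCh38, 5′ to 3′, around the codon of the threonine that becomes the first residue of the mature subunit and its catalytic nucleophile. That codon is in capitals.
PSMB5: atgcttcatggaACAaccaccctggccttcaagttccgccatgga
PSMB8: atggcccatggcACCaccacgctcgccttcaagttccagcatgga
PSMB6: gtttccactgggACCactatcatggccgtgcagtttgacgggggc
PSMB9: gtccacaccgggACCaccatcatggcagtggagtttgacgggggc
PSMB7: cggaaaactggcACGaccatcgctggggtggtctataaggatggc
PSMB10: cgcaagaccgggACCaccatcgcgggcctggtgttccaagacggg
Within these 45 bases each inducible subunit matched its constitutive partner at 36 positions (PSMB8 and PSMB5), 38 positions (PSMB9 and PSMB6) and 30 positions (PSMB10 and PSMB7). The constitutive subunits matched each other at 23 (PSMB5 and PSMB6), 23 (PSMB6 and PSMB7) and 18 (PSMB5 and PSMB7). Over the aligned coding sequence the pairs were identical at 70.5%, 66.4% and 64.7% of bases. PSMB5 lies on chromosome 14 (23016543 to 23035230, minus strand), PSMB6 on chromosome 17 (4796144 to 4798503, plus strand) and PSMB7 on chromosome 9 (124353466 to 124415444, minus strand). PSMB8 (chromosome 6, 32840717 to 32844703, minus strand) and PSMB9 (chromosome 6, 32844136 to 32859585, plus strand) overlap by 568 bases on opposite strands inside the MHC region, and PSMB10 lies on chromosome 16 (67934502 to 67937087, minus strand). The libraries were reverse-stranded per the labels, so reads of the overlapping pair differ in strand.

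The tumours held 20321561 to 39714692 counts each, the controls 1358738 to 4158117 and the single culture 65058609. In 46 of the 48 genes the lowest tumour count was 221, and these 46 passed the filter on low counts. PSMA8, the testis form of an alpha subunit, had 0 counts in all 10 libraries. PSMB11, the thymus form of a catalytic subunit, had 2 counts in recurrent replicate 1, 1 count in primary replicate 3 and 0 elsewhere. The tumours expressed the markers of astrocyte-like glioma cells, with GFAP, the intermediate filament of astrocytes, at 5988 to 23670 counts and the intermediate filament vimentin (VIM) at 61155 to 151857. The 4 T and NK cell markers (CD3E, CD8A, CD2 and NKG7) had 0 counts in all 6 tumours. Of the 5 microglia and macrophage markers, PTPRC, AIF1 and CX3CR1 had 0 counts in all 6, while CD68 had 407 to 782 and CSF1R 34 to 115. That list summed to 22.6 to 28.4 CPM in the tumours and 22.8 CPM in the culture. All these markers were read as human genes, while the host cells are rat. The counts of 0 therefore do not measure rat immune cells in the tumours.

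The 48 genes together took 0.556%, 0.683% and 0.598% of all counts in primary replicates 1 to 3 and 0.590%, 0.550% and 0.580% in recurrent replicates 1 to 3. Primary replicate 2 stood highest, and the other 5 tumours lay close together, with both groups mixed. The culture gave 0.380%, below all 6 tumours. Control replicates 1 and 2, with 0.33% and 0.55% graft reads, gave 146 and 696 counts over all 48 genes, against 119942 to 237337 in the tumours. Control replicate 3, which held 4.90% graft reads, gave 16253 counts, or 0.391% of its total. Graft reads made up 42.52%, 45.38% and 64.40% in primary replicates 1 to 3 and 29.44%, 42.67% and 33.05% in recurrent replicates 1 to 3. Recurrent replicates 1 and 3 lay below all primary tumours, so graft share and tumour group are partly confounded.

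Levels per length varied widely within the roles. On the scale of TMM-scaled CPM (counts scaled to a common library size by the trimmed mean of M values) per kilobase of the principal transcript, averaged over the 6 tumours, the alpha ring ran from 40.9 for PSMA4 to 277.7 for PSMA7, the 19S ATPases from 43.8 for PSMC1 to 189.1 for PSMC3 and the 19S non-ATPase subunits from 29.4 for PSMD12 to 167.7 for PSMD2, the scaffold that binds ubiquitin-like domains. The assembly chaperones, which do not stay in the finished particle, had the lowest median of the 8 classes, 14.6 CPM per kilobase, and ranged from 10.4 for PSMG1 to 50.4 for PSMG3. With the median length of each gene's coding transcripts in place of the principal one, the alpha ring ran from 57.8 to 299.0 and the chaperone median was 18.5, still the lowest of the 8. Single values depend on the transcript chosen, since PSMA4 moved from 40.9 to 191.3.

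The comparison of tumours that grew back after ablation with tumours never ablated found no proteasome gene that passed the test. Of the 46 genes tested, edgeR's quasi-likelihood test called 0 higher and 0 lower after Benjamini-Hochberg adjustment over all 15928 genes tested, with adjusted p from 0.545 to 0.994. Over all genes tested it called 0 higher (0%) and 1 lower (0.00628%), the readthrough gene PEDS1-UBE2V1, named here because it was called. At an unadjusted p under 0.05, 1 proteasome gene was lower (PSMB10) and 0 were higher, or 2.17% in all, against 3.79% lower, 4.59% higher and 8.38% in all of the genes tested. DESeq2 called 0 of the 46, where it called 0.701% of all genes, and limma-voom called 0, where it called 0%. The groups did not overlap for 5 of the 46 genes, 10.9%, a smaller share than the 15.4% of all genes tested. Recurrent tumours were higher for 3 of them, PSMD1, PSMD11 and PSME3 (7.94% of all genes), and lower for 2, PSMB10 and PSMD5 (7.42% of all genes). These are TMM-scaled values. On CPM of the library total, without TMM scaling, the groups overlapped for PSMD1 and PSMD5.

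The log2 fold change of recurrent over primary tumours was below 0 for 37 of the 46 genes, against 51.0% of all genes tested, with a median of -0.17 beside -0.01 over all genes. Primary replicate 2 held the highest value of the 6 tumours for 35 of the 46 genes, or 76.1%, where 27.5% of all genes tested were highest there. Measured as the median over the 46 genes of the log2 ratio of a tumour to the mean of the other 5, it stood at 0.45, against -0.18 and -0.04 in primary replicates 1 and 3 and 0.00, -0.22 and -0.07 in recurrent replicates 1 to 3. Over all genes tested the same median was -0.03 in primary replicate 2. Short genes in general were also high there. As a linear ratio to the mean of the other 5 tumours, the median in primary replicate 2 was 1.49 for the 30 proteasome genes with transcripts under 2000 bases and 1.26 for all 3042 such protein-coding genes, against 1.08 and 0.906 for longer ones. Without this library the median log2 fold change of the proteasome genes was 0.00 (-0.00488) and 24 of 46 lay below 0. The RNA integrity number was 7.8 in primary replicate 2 and 8.1 to 8.9 in the other 5 tumours. Structural small RNAs took 14.5% of its counts and 6.41% to 13.4% of theirs. The part of these in its proteasome values was not tested.

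**Figure D1:**
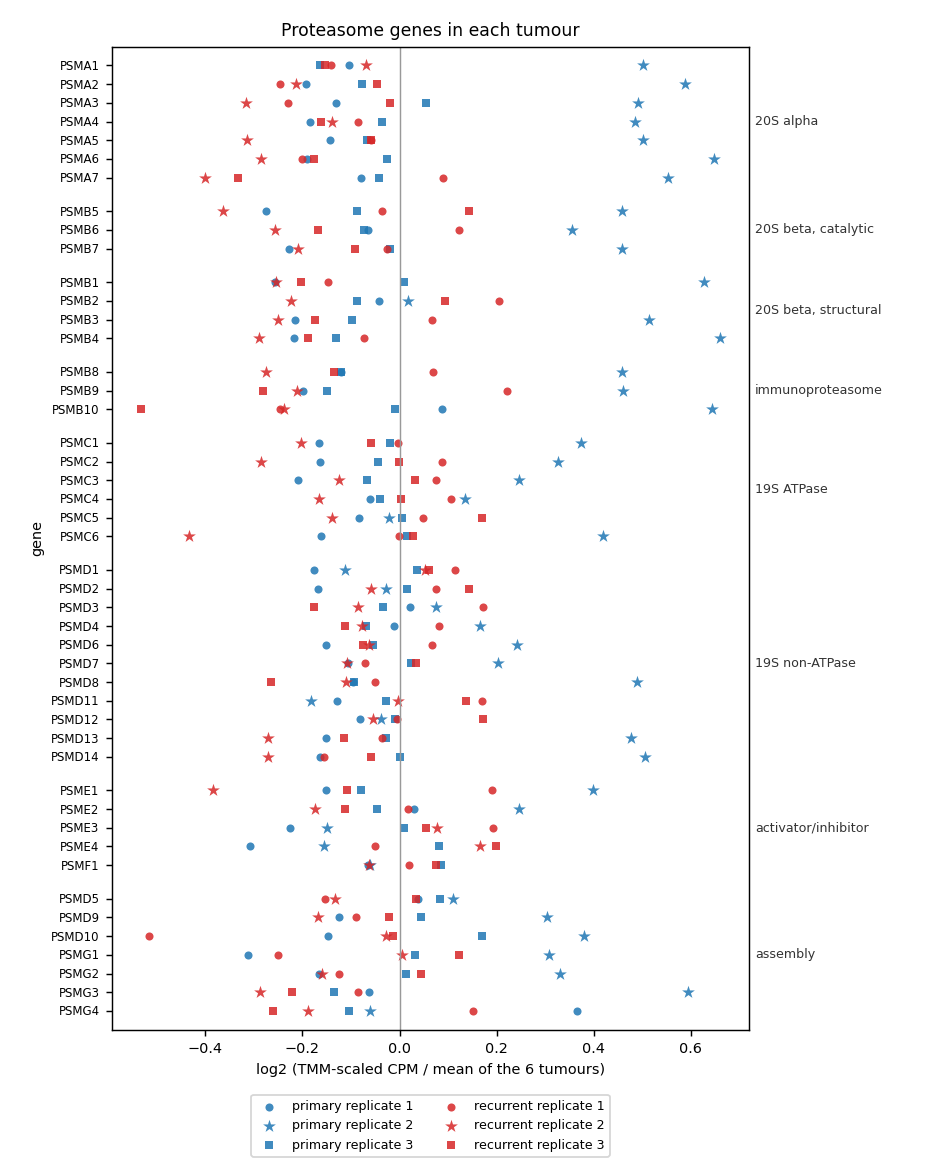
Log2 ratio of the TMM-scaled CPM in each tumour to the mean of the 6 tumours (x axis) for the 46 tested proteasome genes (y axis, grouped by role), with blue points for primary and red for recurrent tumours. The blue star, primary replicate 2, lies furthest right for 35 genes, while the other 5 tumours mix.

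The alpha ring, which forms the gate of the 20S core, had all 7 tested members below 0 on the log2 scale (median -0.31), and 0 passed the test. PSMA6 (chromosome 14, 35278633 to 35317493, plus strand) stood at 137.9, 246.5 and 154.6 CPM in the primary tumours and at 136.9, 129.1 and 139.2 CPM in the recurrent tumours. Its log2 fold change was -0.41 (SE 0.21, edgeR adjusted p = 0.620), from 179.7 ± 58.5 to 135.1 ± 5.30 CPM (SD, n = 3 each). The single high value was primary replicate 2, and primary replicate 1 lay within the recurrent range. PSMA3 stood at 58.7, 90.4 and 66.8 CPM in primary and at 54.9, 51.6 and 63.5 CPM in recurrent tumours, a log2 fold change of -0.35 (SE 0.18). Here too primary replicate 2 stood out and the groups overlapped. In each of the 7 alpha genes primary replicate 2 was the highest tumour, at 1.52 to 1.77 times the mean of the other 5. Without it the median of the alpha ring was -0.04, with 6 of 7 still below 0.

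Primary replicate 2 was also the highest tumour for 3 of the 4 structural genes of the beta ring. PSMB1 stood at 140.5, 259.3 and 169.0 CPM in primary and at 151.7, 140.8 and 145.9 CPM in recurrent tumours, a log2 fold change of -0.38 (SE 0.21). PSMB4 stood at 93.0, 171.0 and 98.9 CPM in primary and at 102.8, 88.5 and 95.0 CPM in recurrent tumours (-0.34, SE 0.22). For both genes the 5 tumours other than primary replicate 2 lay within a narrow band. The median of the 4 structural genes was -0.28 with all tumours and 0.01 without primary replicate 2. PSMB2, with a longer transcript of 2701 bases, was the exception in this class, at a log2 fold change of 0.07.

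None of the constitutive catalytic subunits PSMB5, PSMB6 and PSMB7 passed the test between the tumour groups. PSMB5, the chymotrypsin-like subunit, stood at 54.2, 90.1 and 61.7 CPM in primary and at 64.0, 50.9 and 72.4 CPM in recurrent tumours (log2 fold change -0.14, SE 0.21). PSMB6, the caspase-like subunit, stood at 135.9, 181.8 and 135.2 CPM in primary and at 154.8, 119.0 and 126.5 CPM in recurrent tumours (-0.18, SE 0.17). PSMB7, the trypsin-like subunit, stood at 72.4, 116.6 and 83.7 CPM in primary and at 83.3, 73.4 and 79.6 CPM in recurrent tumours (-0.21, SE 0.18). In all 3 genes the groups overlapped and primary replicate 2 was highest. Without that library the log2 fold changes of PSMB5 and PSMB7 had the other sign, at 0.10 and 0.01.

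Of the inducible catalytic subunits, PSMB10 had the lowest log2 fold change of all 46 genes. It stood at 14.1, 20.7 and 13.1 CPM in primary and at 11.1, 11.2 and 9.14 CPM in recurrent tumours, so that every recurrent tumour lay below every primary tumour. The log2 fold change was -0.60 (SE 0.21), from 15.9 ± 4.10 to 10.5 ± 1.17 CPM (SD, n = 3 each), with an unadjusted p of 0.0186 and an edgeR adjusted p = 0.545, so it did not pass. Without primary replicate 2 it was -0.38. PSMB8 stood at 107.8, 161.0 and 107.8 CPM in primary and at 123.0, 96.8 and 106.7 CPM in recurrent tumours (-0.21, SE 0.18). PSMB9 stood at 28.4, 44.9 and 29.4 CPM in primary and at 38.0, 28.2 and 26.8 CPM in recurrent tumours (-0.14, SE 0.21). Both overlapped between the groups, and without primary replicate 2 both had the other sign, at 0.01 and 0.10.

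The ratio of each inducible subunit to its constitutive partner, as counts per transcript length in the same library, does not depend on scaling between libraries. PSMB8 exceeded PSMB5 in every tumour, at a ratio of 2.29, 2.06 and 2.01 in primary and 2.21, 2.19 and 1.70 in recurrent tumours. With the median transcript length the ratio was lower, 1.32 to 1.78 in the tumours, and still above 1 in each. PSMB9 was the minor partner of PSMB6, at 0.228, 0.269 and 0.237 in primary and 0.268, 0.258 and 0.231 in recurrent tumours. For both pairs the tumour groups overlapped. PSMB10 stood at 0.156, 0.143 and 0.126 of PSMB7 in primary and at 0.108, 0.123 and 0.0924 in recurrent tumours, where the groups did not overlap. The primary mean was 0.142 ± 0.0149 and the recurrent mean 0.108 ± 0.0152 (SD, n = 3 each). As this pair stood out among 3 after its values were seen, it is given with no test.

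**Figure D2:**
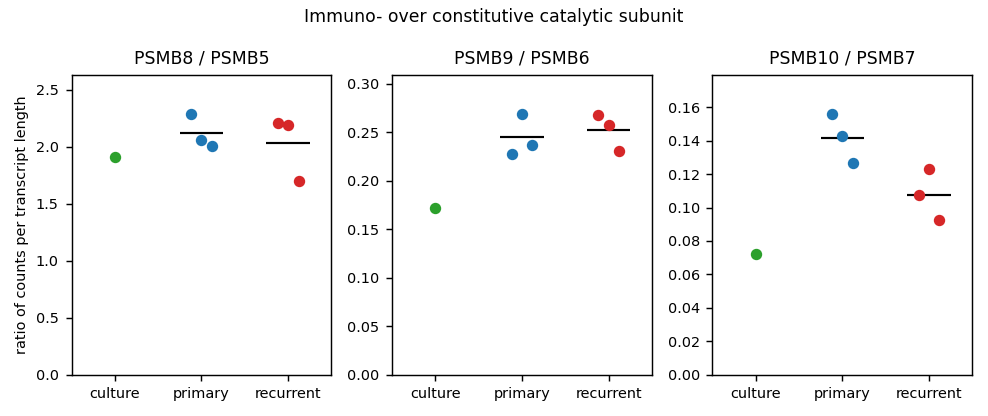
Ratio of each inducible catalytic subunit to its constitutive partner (y axis, counts per principal transcript length, each panel starting at 0) in the culture, primary and recurrent tumours (x axis). Points are libraries and bars are means of 3. PSMB8 exceeds PSMB5 in each library shown, and the culture lies below all 6 tumours for PSMB9 over PSMB6 (0.172) and PSMB10 over PSMB7 (0.0723).

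The ATPase ring of the cap, which unfolds substrates and opens the core, had a median log2 fold change of -0.07 over 6 genes, 5 of them below 0. PSMC6 had the smallest p of the class and stood at 101.6, 151.8 and 114.8 CPM in primary and at 113.5, 84.1 and 115.7 CPM in recurrent tumours (-0.23, SE 0.19). PSMC1 stood at 173.4, 252.3 and 192.1 CPM in primary and at 194.2, 169.0 and 186.7 CPM in recurrent tumours (-0.17, SE 0.17). Recurrent replicate 2 was the lowest tumour for both, and the groups overlapped. Reads of PSMC1 can be split with its pseudogene PSMC1P1, which took 2.19% to 2.78% of the counts of the pair in the tumours.

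The non-ATPase subunits of the cap split in direction, with 7 of 11 below 0 and a median of -0.04. PSMD14, the deubiquitinase that removes ubiquitin chains at the entrance, stood at 106.9, 170.2 and 120.0 CPM in primary and at 107.6, 99.3 and 115.0 CPM in recurrent tumours (-0.30, SE 0.18). PSMD11, a structural subunit of the lid, stood at 165.8, 159.9 and 177.8 CPM in primary and at 204.0, 181.1 and 199.4 CPM in recurrent tumours (0.22, SE 0.13, edgeR adjusted p = 0.667). All 3 recurrent tumours lay above the primary tumours for PSMD11, where primary replicate 2 was the lowest of the 6. Without that library the value was 0.18 for PSMD11 and -0.08 for PSMD14.

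Among the activators, PSME3, the nuclear PA28 gamma activator, stood at 82.6, 87.1 and 97.2 CPM in primary and at 110.4, 102.0 and 100.4 CPM in recurrent tumours, with no overlap (0.23, SE 0.13, edgeR adjusted p = 0.644). PSME4, the PA200 activator, stood at 72.0, 80.0 and 94.3 CPM in primary and at 86.1, 100.04 and 102.3 CPM in recurrent tumours (0.23, SE 0.14), with overlapping groups. In neither was primary replicate 2 the highest tumour, and without it the values were 0.21 for both. Without primary replicate 1 the value of PSME4 was 0.14. PSME1 and PSME2, which form the interferon-induced PA28 ring and lie side by side on chromosome 14, differed by -0.16 and -0.17, and the inhibitor PSMF1 by 0.02.

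The assembly chaperones had all 7 members below 0 (median -0.17), and this class had the lowest median without primary replicate 2, at -0.10 with 6 of 7 below 0. PSMG3, which helps build the alpha ring, stood at 67.1, 105.8 and 63.8 CPM in primary and at 66.0, 57.4 and 60.1 CPM in recurrent tumours (-0.37, SE 0.19). PSMD10, the oncoprotein gankyrin, which guides the ATPase ring, stood at 34.8, 50.1 and 43.3 CPM in primary and at 26.9, 37.8 and 38.1 CPM in recurrent tumours (-0.32, SE 0.19). Both genes overlapped between the groups. For PSMD10 the value was -0.19 without primary replicate 2, -0.17 without recurrent replicate 1, -0.16 with graft percentage as a covariate and -0.67 with the library name prefix as one. PSMD5 did not overlap on the TMM scale, at 42.4, 44.6 and 43.8 CPM in primary and 37.2, 37.7 and 42.3 CPM in recurrent tumours. Its log2 fold change was -0.16 (SE 0.13).

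**Figure D3:**
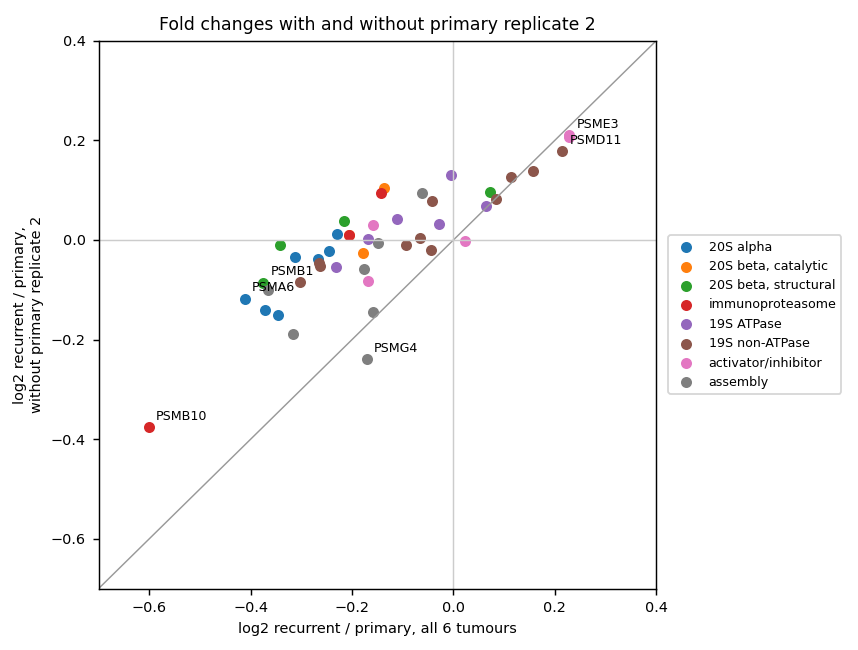
Log2 fold change of recurrent over primary tumours for the 46 tested proteasome genes with all 6 tumours (x axis) and without primary replicate 2 (y axis), coloured by role, with the line of equal values. Most points lie above the line and near 0 on the y axis, where the median is -0.00488, and PSMB10 remains the lowest at -0.38.

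Most proteasome transcripts are short compared with other coding transcripts. The median principal transcript of the 46 genes was 1566 bases, against 3245 bases over 13072 tested protein-coding genes. The 30 proteasome genes under 2000 bases had a median log2 fold change of -0.21, with 28 below 0, and the 16 longer ones had -0.05, with 9 below 0. Protein-coding genes differed in the same order, at -0.17 for 3042 short genes (2212 below 0) and 0.04 for 10030 longer ones (4415 below 0). Without primary replicate 2 the short protein-coding genes had a median of -0.05 and the short proteasome genes -0.01. Across genes, which are not independent replicates and share their libraries, Spearman's rho between length and log2 fold change was 0.448 over the 46 genes and 0.358 over all protein-coding genes. With the length trend of all protein-coding genes removed, the proteasome median was -0.02, with 25 of 46 below 0. On that scale the alpha ring had a median of -0.17, with 7 of 7 below 0.

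**Figure D4:**
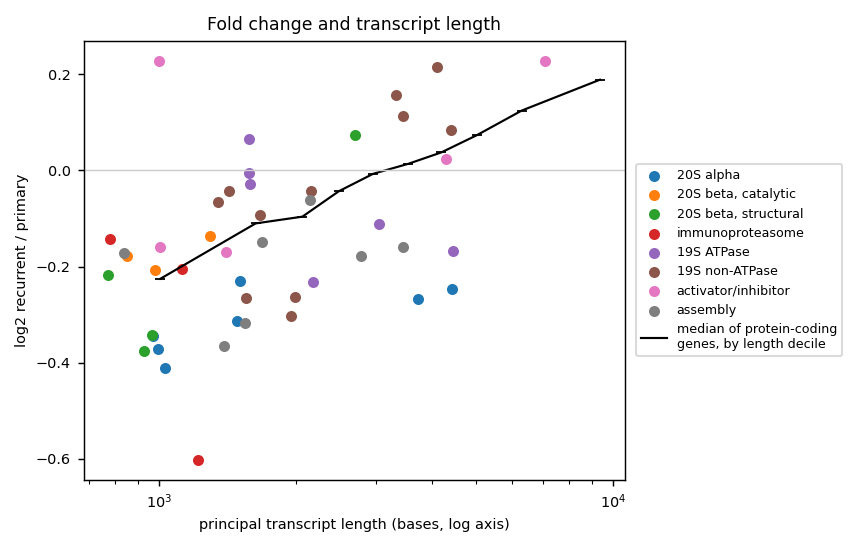
Log2 fold change of recurrent over primary tumours (y axis) against principal transcript length in bases (x axis, log scale) for the 46 tested proteasome genes, coloured by role. The black line joins medians of protein-coding genes by length decile, from -0.23 at 1007 bases to 0.19 at 9361 bases, and most short proteasome genes lie near or below it.

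Against the culture, nearly all proteasome genes stood higher in the tumours. On the scale of CPM of the library total, the culture lay below all 6 tumours for 39 of the 46 genes, or 84.8%, where this held for 20.2% of all genes tested. It lay above all 6 for 0 of the 46, where this held for 31.4% of all genes. The median log2 ratio of the tumour mean to the culture, with 0.5 CPM added to both, was 0.59 over the 46 genes and -0.05 over all genes. The culture is 1 library with no replicate check, so these ratios carry no test. With TMM scaling the culture lay below all tumours for 41 of the 46 genes, where this held for 25.5% of all genes tested, and the median was 0.69, beside 0.04 over all genes.

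Differences over 2-fold were few. The culture lay below all tumours and under the tumour mean by over 2-fold for 3 genes, 6.52% of the 46, beside 5.79% of all genes tested, and above by as much for 0, beside 9.27%. The 3 were PSMB9, PSMB10 and PSMC4. With TMM scaling the count was 8 (6.77% of all genes), adding PSMB6, PSMC1, PSMC2, PSMD2 and PSMD3. On the scale of the library total these 5 lay under 2-fold. PSMB6 stood at 1.99, PSMC2 and PSMD2 at 1.97, PSMC1 at 1.89 and PSMD3 at 1.87 times the culture.

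PSMB9 and PSMB10 had the highest tumour to culture ratios of the 46. PSMB9 stood at 11.2 CPM in the culture and at 29.1, 42.0 and 30.2 CPM in primary and 37.1, 29.2 and 26.8 CPM in recurrent tumours, a tumour mean 2.89 times the culture. PSMB10 stood at 4.66 CPM in the culture and at 14.4, 19.3 and 13.5 CPM in primary and 10.9, 11.6 and 9.14 CPM in recurrent tumours, 2.82 times the culture. The third inducible subunit, PSMB8, was already abundant in the culture at 74.8 CPM, against a tumour mean of 116.4 ± 17.9 CPM (SD, n = 6), or 1.56 times. Relative to the constitutive partner, which removes the scaling, the culture had PSMB9 at 0.172 of PSMB6 and PSMB10 at 0.0723 of PSMB7, below all 6 tumours in both pairs. The ratio of PSMB8 to PSMB5, 1.91 in the culture, lay within the tumour range.

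PSMC4 and PSMB6 followed in size. PSMC4, a cap ATPase, stood at 77.5 CPM in the culture and at 153.8, 161.0 and 156.3 CPM in primary and 164.7, 144.9 and 157.0 CPM in recurrent tumours, 2.02 times the culture. PSMB6 stood at 71.1 CPM in the culture and at 139.1, 170.0 and 138.5 CPM in primary and 151.1, 123.4 and 126.5 CPM in recurrent tumours. The 6 tumours were tight for PSMC4, with an SD of 6.75 CPM around 156.3. By role, the median log2 ratio was 1.40 for the inducible subunits, 0.89 for the ATPases, 0.77 for the non-ATPase subunits, 0.70 and 0.64 for the catalytic and structural beta genes, 0.56 for activators and inhibitor and 0.44 for the alpha ring.

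The assembly chaperones had the lowest class median, 0.10. The culture lay within the tumour range for 5 of the 7 chaperones and for PSME1 and PSME4, and for no other of the 46 genes. This position was common among genes in general, at 7711 of all 15928 genes tested, where the median log2 ratio was -0.05. PSMG1 had the lowest ratio of the 46, at 22.5 CPM in the culture and 18.4, 25.9 and 23.4 CPM in primary and 18.4, 23.3 and 24.3 CPM in recurrent tumours. PSME1 stood at 169.1 CPM in the culture and at 160.5, 214.6 and 169.0 CPM in primary and 194.0, 138.3 and 161.5 CPM in recurrent tumours. For both PSMG1 and PSME1 the culture lay within the range of each tumour group. PSME4 stood at 86.5 CPM in the culture and at 73.7, 74.8 and 96.6 CPM in primary and 84.0, 103.8 and 102.3 CPM in recurrent tumours. PSMD5 stood at 39.1 CPM in the culture and at 43.4, 41.8 and 44.9 CPM in primary and 36.3, 39.1 and 42.3 CPM in recurrent tumours. The culture lay within both tumour groups for PSME4, and below all primary tumours but within the recurrent range for PSMD5. No test of the difference between chaperones and subunits is possible with 1 culture.

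**Figure D5:**
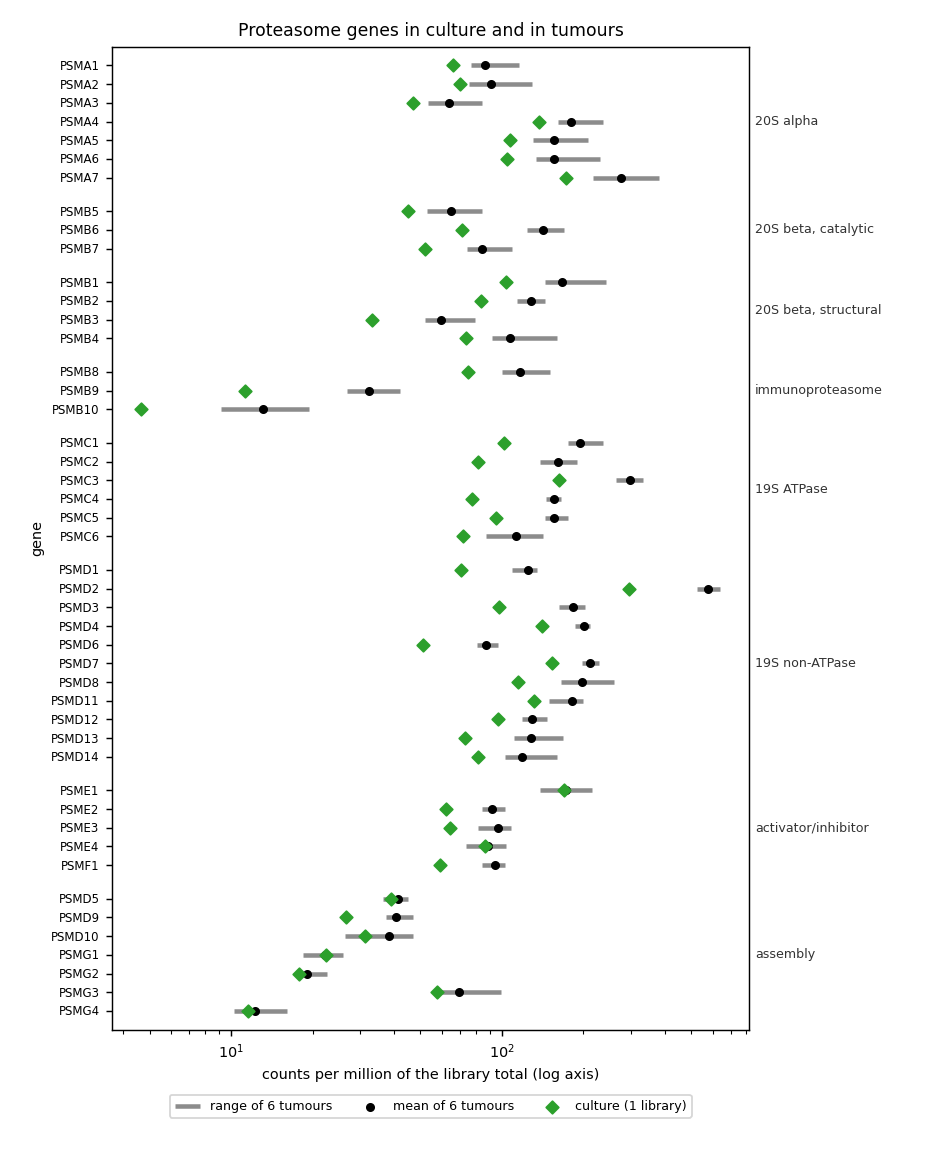
CPM of the library total (x axis, log scale) for the 46 tested proteasome genes (y axis, grouped by role). Grey bars span the 6 tumours, black points are their means and green diamonds are the 1 culture. The diamond lies left of the bar for 39 genes and on it for 7, among them 5 assembly chaperones.

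Control replicates 1 and 2 gave the background measured in brain with under 1% graft reads. PSMD2, which had the highest CPM of the set before any adjustment for length, had 29 and 78 counts there. PSMB5 had 7 and 10, PSMB8 had 2 and 12, PSMB9 had 1 and 5 and PSMB10 had 0 and 6. A count of 0 allows up to 3 counts, or 2.21 CPM in control replicate 1. Structural small RNAs took 92.6% and 89.8% of these libraries, so shares of the total are low for any other gene, and without them the 48 genes took 0.146% and 0.399% of counts, against 0.592% to 0.799% in the tumours. An estimate of the host part took the counts of both controls per structural small RNA count and treated all such RNA in a tumour as host-derived. The culture, which has no host cells, held 6.80% such RNA, beside 6.41% to 14.5% in the tumours. Not all of it in a tumour need therefore come from the host. On that estimate the highest host part of a gene's counts in any tumour had a median of 0.662% over the 46 genes and reached 2.65% for PSMB10. It rests on few counts and differed between the controls, with a highest value of 1.19% (PSMB5) from control replicate 1 alone and 4.84% (PSMB10) from control replicate 2 alone. Control replicate 3 is labelled tumour-free but held 4.90% graft reads, and its astrocyte-like glioma markers summed to 4331 CPM, against 4807 to 6427 CPM in the tumours. Its 70 counts of PSMB9, 26 of PSMB10 and 1751 of PSMD2 are therefore not read as host background. The limit for a count of 0 reflects counting alone, because amplified reads here carry no molecular identifier. In bulk tissue fewer cells and less RNA per cell cannot be told apart.

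The partners of the proteasome outside the PSM names were read from 37 further genes, all tested, of which edgeR called 0 between recurrent and primary tumours, with 17 below 0 and a median log2 fold change of 0.01. POMP, the maturation factor of the core, and ADRM1, a ubiquitin receptor of the cap, were lower in the culture than in all 6 tumours, at 1.61 and 1.93 times the culture in the tumour mean. Among cofactors, the thioredoxin-like cap protein TXNL1 had the smallest p (-0.26, SE 0.17), followed by the adaptor ECPAS (0.13, SE 0.13). Among assembly and import factors these were IPO9, an importin (0.22, SE 0.15), and AKIRIN2, which brings proteasomes into the nucleus with it (-0.20, SE 0.14). Over the 37 genes the culture lay below all tumours for 16 and above for 11, beside 20.2% and 31.4% of all genes tested. It lay inside their range for 10, beside 7711 of all 15928 genes tested. The median log2 ratio was 0.14, beside -0.05 over all genes.

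NFE2L1 is the transcription factor that raises proteasome genes when degradation fails. Its RNA was higher in the 1 culture library than in all 6 tumours, with the tumour mean at 0.653 of the culture. The activity of NFE2L1 was not measured, and its part in the subunit levels was not tested. Between recurrent and primary tumours NFE2L1 differed by -0.05 (SE 0.18). Its activating protease DDI2 differed by 0.36 (SE 0.19) and SYVN1, the ubiquitin ligase that destroys it at the endoplasmic reticulum, by 0.30 (SE 0.17), and neither passed. Of the ubiquitin genes and shuttles, ZFAND2A, a stress-induced proteasome-binding protein, differed by -0.43 (SE 0.21) and the ubiquitin-ribosomal fusion RPS27A by -0.38 (SE 0.22). UFD1, a cofactor of the unfoldase VCP, was the only partner over 2-fold lower in the culture, at 2.34 times in the tumour mean. By the same rule 5.79% of all genes tested were lower in the culture.

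Peptide presentation gives the setting of the inducible subunits. Of 14 interferon and presentation genes, 0 passed between recurrent and primary tumours (median log2 fold change 0.02), and the smallest p belonged to NLRC5, the activator of MHC class I genes (0.47, SE 0.23), and the peptide transporter subunit TAP2 (0.23, SE 0.14). Against the culture they split. HLA-B stood at 2.81 times and the peptide transporter subunit TAP1 at 1.77 times the culture in the tumour mean. STAT2 and IRF9, which carry the interferon signal, stood at 0.644 and 0.427 times. The presentation genes ERAP1 and ERAP2 stood at 0.715 and 0.804 times, with the culture above all tumours. IRF1 and NLRC5 stood at 1.43 and 1.34 times, with the culture inside the tumour range. The culture lay below all tumours for 5 of the 14 and above all tumours for 5, beside 20.2% and 31.4% of all genes tested.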

How the data were processed

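Total RNA of 10 libraries was sequenced after ribosomal depletion, with a reverse-stranded kit per the labels' protocols. The authors deposited a table of estimated counts per gene on GRCh38, and Salmon 1.10.3, STAR and DESeq2 are named, without roles, in the submitters' processing notes. No source used here gives the annotation release, or says whether host reads were removed before counting. The estimated counts were rounded to whole numbers. The tumour groups were tested with edgeR 4.0.16 (quasi-likelihood, TMM scaling, filterByExpr, Benjamini-Hochberg over all genes tested, threshold 0.05, two-sided, R 4.3.3), checked on simulated data. DESeq2 1.42.0, limma-voom (limma 3.58.1), other scalings, filters, covariates and leaving out each library were alternatives. Levels are TMM-scaled CPM between tumours, and CPM of the library total against the culture and controls. GENCODE 29 gave positions, types and lengths for all 48 genes and 58261 of the 62754. The host estimate, with its values from each control alone, was added after seeing the data. The genes and lists were chosen with earlier results of these data known. Values in each of the 6 tumours are given for the 6 catalytic subunits and the 2 genes with the smallest p in each class. For the 4 genes with the largest culture ratio in each direction, values in the culture and each tumour are given. In partner lists the fold changes of the 2 genes with the smallest p are given. The further genes named with values, and PSMD1, were chosen after their values were seen. Those with values were PSMB2, PSME2, PSMF1, PSMC2, PSMD2, PSMD3, PSMD5 between tumours, POMP, ADRM1, NFE2L1, TAP1, STAT2, ERAP1, ERAP2 and IRF1. HLA-B, IRF9 and UFD1 were named because the culture lay outside the tumour range and over 2-fold from the tumour mean.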

Additional observations from a re-analysis of the deposited data

How the results depend on the processing

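Of the 46 proteasome genes tested, 0 were called between recurrent and primary tumours under every alternative run. Over all genes edgeR's 1 call became 107 with DESeq2, 0 with limma-voom, 411 with no filter on low counts, 0 with graft percentage and 4 with the library name prefix as a covariate, and 0 to 23 when each tumour was left out (0 without primary replicate 2, 23 without recurrent replicate 1). The proteasome median of -0.17 ran from -0.26 to -0.00488 when each tumour was left out, and was -0.32 with the graft covariate, -0.09 with the prefix and -0.02 with the length trend removed. Under the prefix covariate the contrast rests on recurrent replicate 1 alone, assumed to vary like the others, and there PSMB6 was 0.037 and PSMB9 0.15. Leave-one-out values ran from -0.28 to 0.10 for PSMB5, -0.35 to 0.0097 for PSMB7, -0.31 to 0.0106 for PSMB8, -0.32 to 0.10 for PSMB9 and -0.28 to 0.00114 for PSMC1, each above 0 only without primary replicate 2; the cause was not tested. The 3 genes over 2-fold lower in the culture became 8 with TMM scaling and 6 without small RNAs, and 2 to 5 when each tumour was left out (2 without recurrent replicate 1, 5 without recurrent replicate 2). The mean share of the 48 genes in the controls, 0.148% of counts, was 0.372% without small RNAs and ran from 0.0258% without control replicate 3 to 0.216%. Depth limits the controls, where control replicate 1 detected 34 of the 48 genes. No paired analysis was possible because the labels give no replicate numbers shared between groups.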
